A study of Mus musculus with 16 samples.

Results

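The circadian clock genes described here are *Arntl* (also called *Bmal1*), *Clock*, *Per1*, *Per2*, *Per3*, *Cry1*, *Cry2*, *Nr1d1*, *Nr1d2* and *Dbp*, a list of 10 genes taken by symbol. All 10 were found among the 23609 genes of the table, and all 10 were among the 21034 genes whose mean over the tumors was at least 10 and that were therefore tested. The values came from mammary tumors, 5 from wildtype x PyMT mice and 5 from gene trap x PyMT mice. All of these animals carry MMTV-PyMT, the polyoma middle T antigen driven in mammary epithelium by the MMTV promoter, which gives rise to mammary tumors, and are F1 offspring of an FVB line that carries it. The gene trap animals are heterozygous for *Resf1* (*Resf1* +/-), carrying an EGFP/Cre lentiviral trap in the first exon of *Resf1* from 1 insertion line of C57BL/6 origin, and the wildtype animals are their littermates. The labels describe 8 tumors in each group, and 6 of the 16 columns of the table matched no tumor's label and were left out. The animals' ages and the hour at which each tumor was collected are not given in the sources used here. Values are normalized estimates of counts per gene, so the depth of each tumor is unknown, and the labels give no identifier of the animal behind each tumor, so p-values measure only the spread between these tumors. In whole tumors, fewer cells of a type and less RNA per cell cannot be told apart.

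The circadian clock is a feedback loop of transcription found in almost all cells. Its positive limb is a heterodimer of the proteins encoded by *Arntl* and *Clock*, which binds E-box sequences and activates the *Per*, *Cry*, *Nr1d1*, *Nr1d2* and *Dbp* genes. The PER and CRY proteins return to the nucleus and block that heterodimer, and the nuclear receptors encoded by *Nr1d1* and *Nr1d2* (REV-ERB alpha and beta) repress *Arntl*, in competition with the ROR receptors. *Dbp* encodes a PAR bZIP factor that, like its relatives *Tef* and *Hlf*, activates genes through D-box sequences. In rhythmic tissues such as liver, *Arntl* and *Npas2* peak at about the opposite time of day to *Dbp* and the *Per* genes.

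The sequence elements of this loop were looked for in RefSeq promoter windows (build GRCm38.p6, from 250 bases before to 50 bases after each start site), of which 13 were available for 9 of the 10 members, all other than *Per2*. The windows below are shown because they hold the E-box CACGTG or the D-box TTATGTAA in the genes whose levels are compared later, with the element in capitals, read 5′ to 3′ on the gene's strand.
Per1 E-box, chr11:69098771-69098800, plus strand: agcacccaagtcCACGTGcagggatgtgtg
Cry1 E-box, chr10:85185097-85185126, minus strand: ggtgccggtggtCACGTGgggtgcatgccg
Tef E-box of the first window, chr15:81802534-81802563, plus strand: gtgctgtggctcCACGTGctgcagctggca
Tef E-box of the other window, chr15:81811264-81811293, plus strand: cacctggcccagCACGTGtctacatcgttt
Per3 D-box nearer the start site, chr4:151044805-151044834, minus strand: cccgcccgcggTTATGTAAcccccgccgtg
Per3 D-box farther from it, chr4:151044852-151044881, minus strand: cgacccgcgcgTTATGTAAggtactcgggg

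The E-box CACGTG was present in the windows of 2 members, *Per1* and *Cry1*, and in 8.09% of all 27025 genes with a window. Both windows of *Tef*, which is not among the 10, also held it. The D-box TTATGTAA was present only in *Per3* among the 9 members, 2 times, at 158 and 205 bases before the start site (positions -158 and -205), and in 1.11% of all genes. The variant E-box CACGTT, searched on both strands as all motifs were, was found in *Cry1*, *Cry2* and *Nr1d1* (3 members, 5.44% of all genes). The ROR element core AGGTCA, which is also bound by REV-ERB receptors, was found in *Arntl*, *Clock*, *Per1* and *Nr1d2* (4 members, 18.1% of all genes). The second D-box TTACGTAA and the cAMP response element TGACGTCA were in 0 of these 13 windows, against 0.126% and 2.03% of all genes. The *Dbp* window held 0 of these motifs. A match describes the letters of this short window and no more.

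*Resf1* (ENSMUSG00000032712), which carries the trap, averaged 4099 ± 400 in the wildtype and 3516 ± 361 in the gene trap tumors (normalized value, SD, n = 5 each), and its log2 fold change was -0.22. The ranges overlapped and the difference missed the threshold over all genes (unadjusted p = 0.0313 in limma's test, adjusted p = 0.9997, exact permutation p = 0.0635). Markers of luminal epithelium, from which MMTV-PyMT tumors arise, were all measured (8 of 8) and summed to between 91326 and 122432 in the 10 tumors. One library stood apart: gene trap tumor 2 had 926 genes at least 2-fold below all other tumors, against 11 to 53 in the others, and the highest column total, 42153600 against 31995100 in the lowest tumor.

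Levels of different genes were compared per kilobase of all annotated exons merged, whichever transcripts the tumors express. The order therefore depends on the annotation as well. Per kilobase of exon, *Nr1d2* was the most abundant clock gene in the tumors at 555 ± 107 (normalized value per kilobase, SD over 10 tumors) and *Nr1d1*, its paralog, the least abundant at 45.0 ± 11.0. *Clock* followed at 267 ± 21.2, *Per1* at 234 ± 70.3, *Per2* at 167 ± 40.6 and *Cry2* at 148 ± 18.4. *Dbp*, *Cry1* and *Per3* were at nearly the same level, with means of 125 ± 59.9, 124 ± 13.7 and 124 ± 32.2. *Dbp* was above *Cry1* in 5 of 10 tumors and *Cry1* above *Per3* in 4 of 10, so these neighbours did not differ beyond their spread. *Arntl*, at 54.5 ± 5.21, was below *Per3* in 10 of 10 tumors and above *Nr1d1* in 8 of 10. *Clock* and *Per1*, *Per2* and *Cry2*, and *Cry2* and *Dbp* were in that order in 7 of 10 tumors each, and *Per1* exceeded *Per2* in 9 of 10.

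*Arntl* and *Clock*, the members of the positive limb, were nearly flat across the tumors. *Arntl* (ENSMUSG00000055116, chromosome 7) had normalized values of 423, 380, 388, 389 and 398 in wildtype tumors 1 to 5 and 406, 351, 477, 471 and 416 in gene trap tumors 1 to 5. The gene trap tumors held both the highest values (tumors 3 and 4) and the lowest (tumor 2), and the groups overlapped. Their means were 396 ± 16.5 and 424 ± 51.7 (SD, n = 5 each), and the log2 fold change was 0.09 (standard error 0.10). *Clock* (ENSMUSG00000029238, chromosome 5), its partner, was at 3991, 3584, 3409, 3846 and 3254 in wildtype tumors and at 3969, 3238, 3917, 3871 and 3607 in gene trap tumors. The lowest tumor, again gene trap tumor 2, was just below the lowest wildtype tumor. The log2 fold change of *Clock* was 0.04 (standard error 0.08).

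The *Per* genes, which encode the repressors of the loop, spread more widely. *Per1* (ENSMUSG00000020893, chromosome 11) was at 1237, 1593, 1274, 2254 and 1065 in wildtype tumors and at 1176, 1446, 1315, 1030 and 802 in gene trap tumors. Wildtype tumor 4 was far above all others, and 2 gene trap tumors were below all wildtype tumors. *Per2* (ENSMUSG00000055866, chromosome 1) was at 876, 895, 1158, 1405 and 1049 in wildtype tumors and at 801, 1110, 845, 544 and 1107 in gene trap tumors, so that 3 gene trap tumors were below the lowest wildtype tumor while the other 2 were among the higher values. *Per3* (ENSMUSG00000028957, chromosome 4) was at 1444, 745, 1325, 1470 and 1275 in wildtype tumors and at 1021, 1307, 1134, 618 and 1541 in gene trap tumors. Here 1 tumor of each group, wildtype tumor 2 and gene trap tumor 4, was well below the rest, and the highest tumor of all was gene trap tumor 5. The log2 fold change was -0.34 (standard error 0.20) for *Per1*, -0.31 (standard error 0.19) for *Per2* and -0.18 (standard error 0.24) for *Per3*.

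*Cry1* and *Cry2*, which encode the partners of the PER proteins, varied little. *Cry1* (ENSMUSG00000020038, chromosome 10) was at 349, 419, 459, 381 and 430 in wildtype tumors and at 364, 402, 504, 434 and 399 in gene trap tumors. *Cry2* (ENSMUSG00000068742, chromosome 2) was at 1059, 823, 928, 1034 and 888 in wildtype tumors and at 766, 1085, 1023, 789 and 964 in gene trap tumors. In both genes the groups overlapped over most of their range, and the log2 fold changes were 0.04 (standard error 0.11) and -0.04 (standard error 0.12).

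The REV-ERB receptors differed from each other in how the tumors were ordered. *Nr1d1* (ENSMUSG00000020889, chromosome 11) was at 139, 127, 141, 161 and 115 in wildtype tumors and at 222, 128, 122, 133 and 96.7 in gene trap tumors. Gene trap tumor 1 was highest and gene trap tumor 5 lowest. *Nr1d2* (ENSMUSG00000021775, chromosome 14) was at 3077, 2480, 3638, 3321 and 3009 in wildtype tumors and at 3035, 2504, 2397, 2445 and 4139 in gene trap tumors. There gene trap tumor 5, the lowest for *Nr1d1*, was the highest. The log2 fold changes were -0.01 (standard error 0.20) and -0.12 (standard error 0.15).

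*Dbp* (ENSMUSG00000059824, chromosome 7), the output factor, had the widest spread. It was at 389, 211, 443, 485 and 295 in wildtype tumors and at 230, 557, 230, 173 and 727 in gene trap tumors. The 2 highest tumors and the lowest tumor were all gene trap tumors, and the other 2 gene trap tumors were near the bottom of the wildtype range. The means were 364 ± 111 (SD, n = 5) and 383 ± 245 (SD, n = 5), and the log2 fold change on the fitted scale was -0.10 (standard error 0.38), opposite in sign to the difference of the means since the 3 low gene trap tumors count for more on a log scale.

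**Figure D1:**
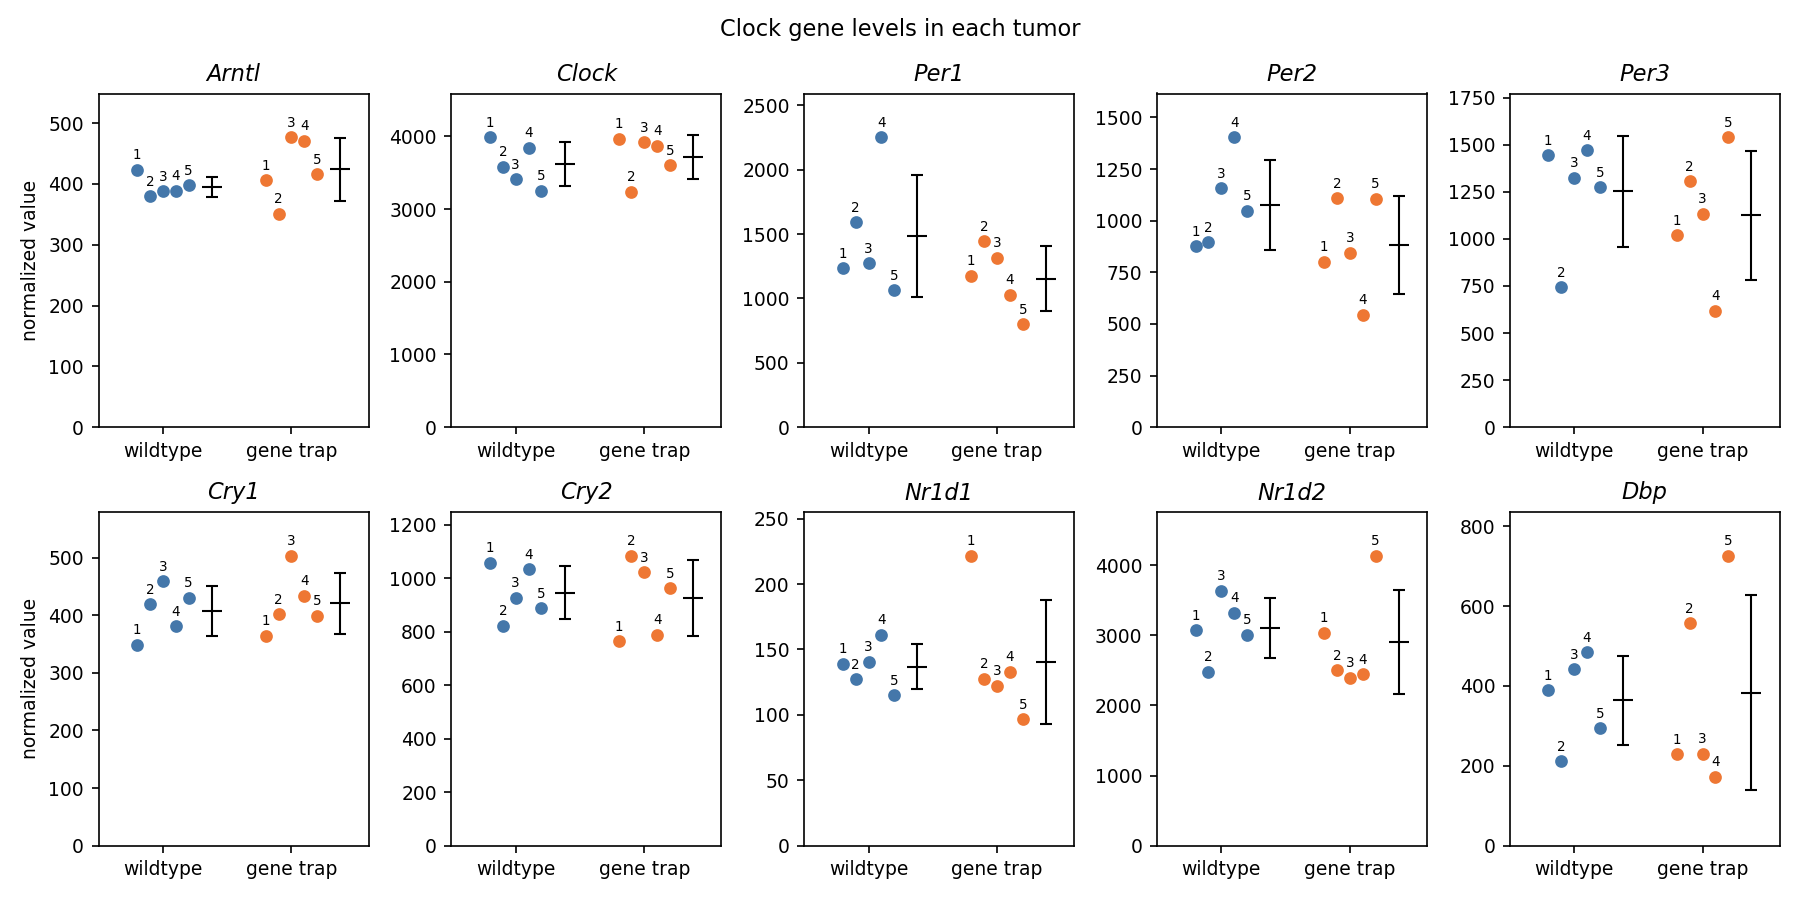
Normalized value (y axis, starting at 0) of each of the 10 clock genes in 5 wildtype (blue) and 5 gene trap (orange) tumors, numbered by replicate, with the mean and SD of each group as black bars. The groups overlap in every panel, and *Dbp* runs from 173 in gene trap tumor 4 to 727 in gene trap tumor 5.

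The comparison of the groups asks whether the trapped *Resf1* allele goes with a change in clock gene expression in the tumor. None of the 10 members differed between gene trap and wildtype tumors at an adjusted p under 0.05, and 0 of all 21034 tested genes (0%) did so in limma's test. At an unadjusted p under 0.05 the count was 479 of all tested genes (2.28%, with 1.32% higher and 0.956% lower in gene trap tumors) and 0 of the 10 members. The smallest unadjusted p among the members were those of *Per1* (0.119, exact permutation 0.206) and *Per2* (0.132, exact permutation 0.183). The groups overlapped in all 10 members, whereas they did not in 0.528% of all tested genes. Of the members 3 had a positive and 7 a negative log2 fold change, with a median of -0.07 against 0.005 over all tested genes. Without wildtype tumor 4, in which *Per1* was highest, its log2 fold change was -0.18. The log2 fold change of *Per2* was -0.21 without wildtype tumor 4, -0.15 without gene trap tumor 4, in which it was lowest, and -0.41 without gene trap tumor 2. Without gene trap tumor 2, that of *Per1* was -0.43, that of *Arntl* 0.16, that of *Clock* 0.09 and that of *Dbp* -0.29, and 0 genes passed an adjusted p of 0.05.

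**Figure D2:**
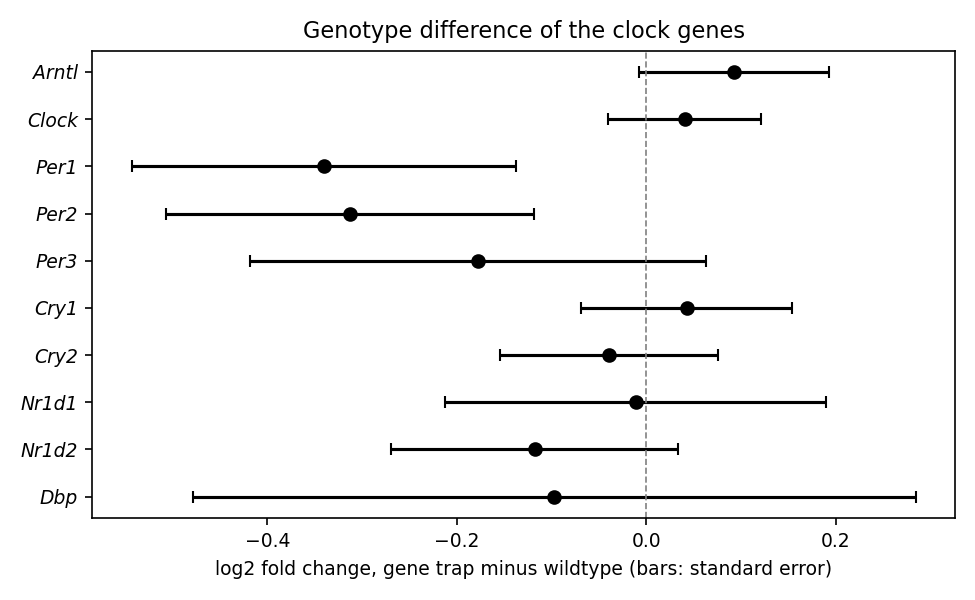
Log2 fold change, gene trap minus wildtype (x axis), of each clock gene (y axis) with its standard error as a bar, from limma over 5 and 5 tumors. *Per1* and *Per2* lie farthest from 0 at -0.34 and -0.31, and the adjusted p of every gene shown is 0.9997.

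*Per1* is known to respond directly to stimuli that induce immediate early genes and to glucocorticoids. The summed level of 9 immediate early genes was 20948 in wildtype tumor 4 and between 8180 and 12822 in the other tumors, and 7 of the 9 were highest there. The summed level of 9 glucocorticoid-responsive genes was 43218 in that tumor and between 19822 and 29854 in the others, but 4 of the 9 were highest there and *Errfi1* alone made up 19836 of the sum. Without *Errfi1* the sum was 23382 in that tumor and 14199 to 21746 in the others. Among the immediate early genes, *Fos* had a log2 fold change of -0.77 (unadjusted p = 0.0218, exact permutation p = 0.0397) and *Egr2* of -0.41 (unadjusted p = 0.0126, exact permutation p = 0.00794, the smallest that 5 against 5 tumors allow), both with an adjusted p of 0.9997. The *Egr2* groups did not overlap, at 153 to 225 in wildtype and 120 to 145 in gene trap tumors. Of all tested genes, 0.261% were lower in gene trap tumors without overlap and 0.956% were lower at an unadjusted p under 0.05. *Fos* and *Egr2* were the only 2 of the 9 immediate early genes at that level. Of these 9, 7 had a negative log2 fold change and 2 a positive one, *Jun* (0.0003) and *Fosb* (0.02). The part of these genes in the *Per1* values was not tested.

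The clock genes differed in how much they varied from tumor to tumor, whatever the group. The SD of log2 values over the 10 tumors was 0.685 for *Dbp*, at percentile 93.5 of all tested genes, followed by 0.438 for *Per3* (percentile 77.4), 0.399 for *Per1* (73.0) and 0.376 for *Per2* (70.1). It was 0.315 for *Nr1d1*, 0.268 for *Nr1d2*, 0.182 for *Cry2* and 0.157 for *Cry1*. *Arntl* at 0.135 (percentile 19.6) and *Clock* at 0.117 (12.9) were among the steadier genes of the table. The highest tumor exceeded the lowest 4.20-fold for *Dbp*, 2.81-fold for *Per1*, 2.58-fold for *Per2*, 2.49-fold for *Per3* and 2.29-fold for *Nr1d1*, and 1.36-fold for *Arntl* and 1.23-fold for *Clock*. These 5 of 10 members with more than a 2-fold range compare with 39.8% of all tested genes. The median SD was 0.291 over the members and 0.251 over all tested genes, and 6 members were above the latter, with or without gene trap tumor 2.

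**Figure D3:**
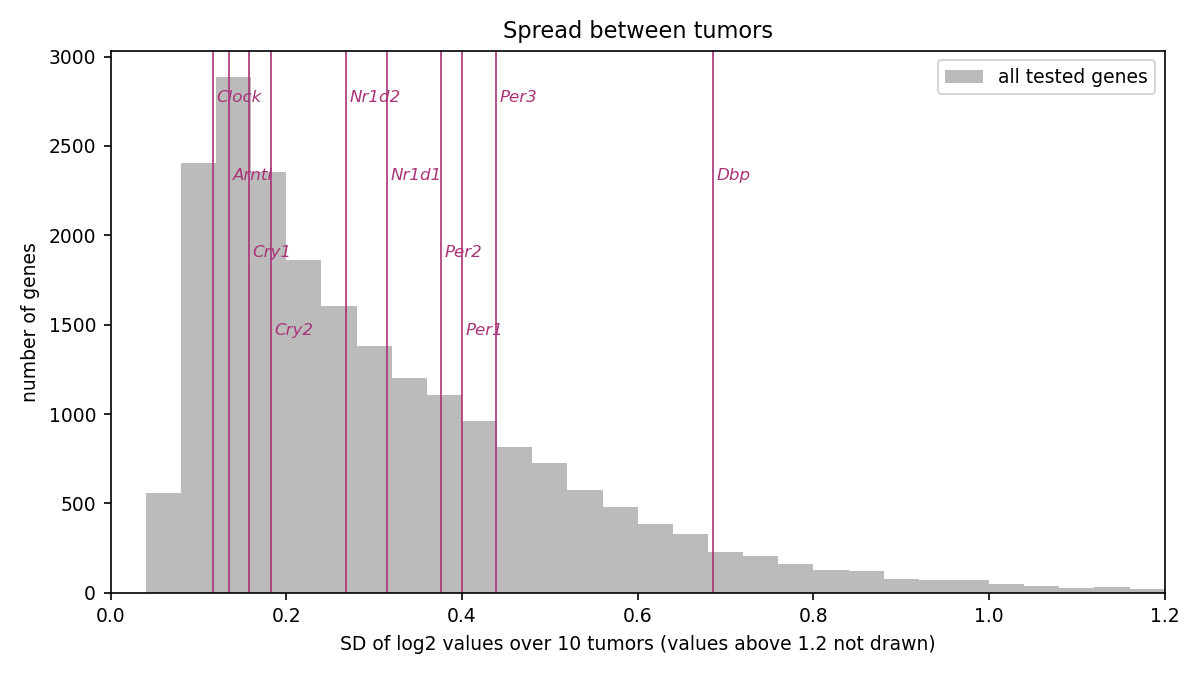
Histogram of the SD of log2 values over the 10 tumors (x axis, up to 1.2) for all 21034 tested genes (y axis, number of genes), with each clock gene as a vertical line. *Clock* and *Arntl* lie near the peak at 0.117 and 0.135, and *Dbp* lies in the right tail at 0.685.

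Several clock genes were correlated across the tumors. Pearson's r of log2 values over the 10 tumors was 0.85 for *Dbp* with *Per3*, 0.80 for *Per3* with *Per2*, 0.78 for *Dbp* with *Per2*, 0.74 for *Per3* with *Cry2* and 0.70 for *Dbp* with *Nr1d2*. Of the 45 pairs of members, 10 had r above 0.5 and 2 below -0.5, and the median was -0.10. The share of all gene pairs beyond these values was not computed, so whether these counts are unusual is not known. The 10 pairs above 0.5 comprise every pair among *Dbp*, *Per3*, *Per2*, *Cry2* and *Nr1d2* other than *Cry2* with *Nr1d2* (r = 0.14), together with *Arntl* with *Clock*. *Per1*, *Cry1* and *Nr1d1* had no pair above 0.5, although *Nr1d1* and *Dbp* are both textbook E-box targets and their r here was -0.32. *Nr1d1* has the lowest level per kilobase of the 10, and 263 bases of its exons overlap those of *Thra* on the opposite strand. *Dbp* likewise shares 539 bases with *Sphk2* on the opposite strand, *Cry2* 295 bases and *Arntl* 33 bases with non-coding genes. Whether strand was used in counting is not given in the sources used here, so reads in these stretches cannot be assigned. *Sphk2* ranged from 953 to 1438 over the tumors, a 1.51-fold range against the 4.20-fold range of *Dbp*. It was highest in gene trap tumor 2 (1438), wildtype tumor 4 (1422) and gene trap tumor 5 (1298), which were also the highest for *Dbp*. Its lowest tumor was wildtype tumor 5 (953), whereas that of *Dbp* was gene trap tumor 4. The part of shared reads in the *Dbp* values was not tested.

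**Figure D4:**
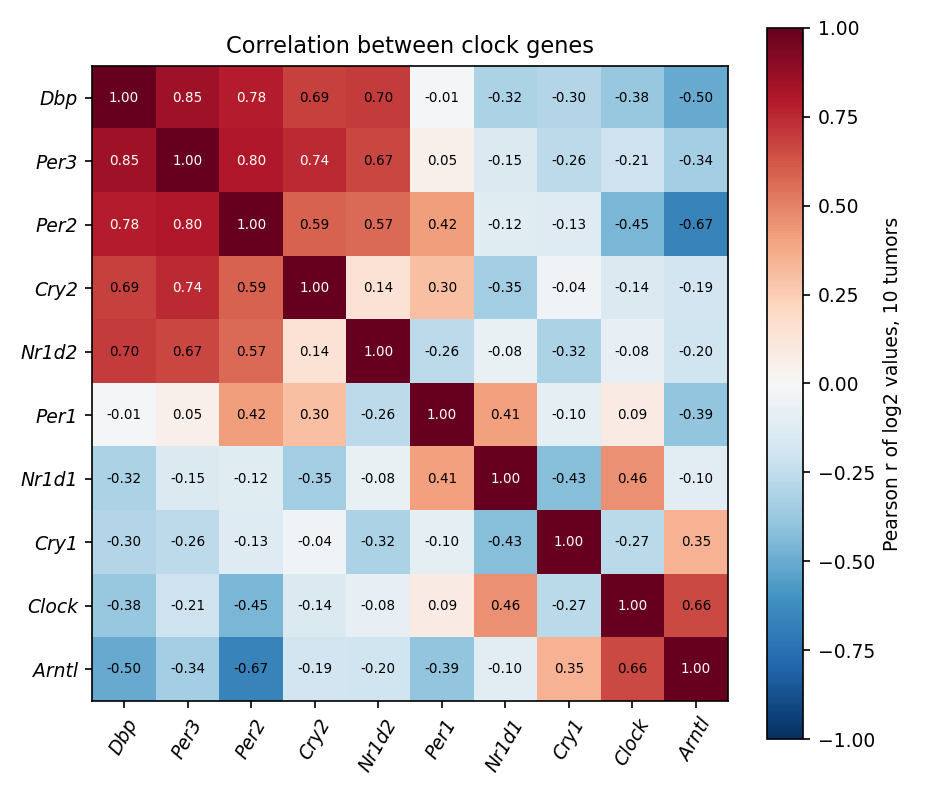
Pearson's r between the log2 values of each pair of clock genes over 10 tumors, from -1 (blue) to 1 (red), printed in each cell. *Dbp*, *Per3*, *Per2*, *Cry2* and *Nr1d2* form the red block at the top left, and *Arntl* with *Clock* the red pair at the bottom right.

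Because *Dbp* had the widest spread, it was taken, after the values were seen, as the gene against which all others were fitted, with genotype as a term. The slope is the change in a gene's log2 value per unit of log2 *Dbp*. Of the 21033 other tested genes, 1 (0.00475%) had a slope with an adjusted p under 0.05, and this gene was *Tef*, the *Dbp* relative whose promoter windows are shown above. At an unadjusted p under 0.05 the count was 1166 genes (5.54%), among them 4 of the 9 other members, all with positive slopes (3.09% of all genes had a positive slope at that level).

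*Tef* had normalized values of 3296, 2220, 3978, 3622 and 2920 in wildtype tumors and 2762, 3910, 2826, 1975 and 4723 in gene trap tumors. It was highest in gene trap tumor 5 and lowest in gene trap tumor 4, as *Dbp* was, and the 6 lowest tumors of the 2 genes came in the same order. Its slope was 0.55 (standard error 0.06, p = 2.25e-06, adjusted p = 0.0474), and Pearson's r with *Dbp* was 0.96 (permutation p = 4.0e-05; Spearman's rho 0.96, permutation p = 6.0e-05). Without the 2 tumors farthest from the median of *Dbp*, gene trap tumors 4 and 5, r was 0.93. The call over all genes was close to its threshold. It held in 6 of 10 other settings, not under rescaling to equal column totals (adjusted p = 0.845) or quantile normalization (adjusted p = 0.364), and in 1 of 10 fits that left out 1 tumor each, the one without gene trap tumor 2 (adjusted p = 0.0307), while the slope stayed between 0.50 and 0.57 in these fits and *Tef* ranked between 1 and 3 of all genes by p in every fit run. *Hlf*, the third member of the family, had r of -0.02 with *Dbp*.

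Of the members, *Per3* followed with a slope of 0.53 (standard error 0.11, rank 8 of all genes by p) and *Per2* with 0.41 (standard error 0.09, rank 31), both with an adjusted p of 0.657. *Per3* is the member whose promoter window held 2 D-boxes, whereas *Per2* had no window and those of *Nr1d2* and *Cry2* held 0. The part of D-boxes in the relations with *Dbp* was not tested. The r of *Per3* with *Dbp* was 0.85 (permutation p = 0.0008; rho 0.92, permutation p = 0.00063) and 0.79 without gene trap tumors 4 and 5, and that of *Per2* was 0.78 (permutation p = 0.00483; rho 0.79, permutation p = 0.00876) and 0.77 without them. *Nr1d2* had a slope of 0.27 (standard error 0.09) and *Cry2* of 0.18 (standard error 0.07), both with an adjusted p of 0.807. The relation of *Nr1d2* leaned on single tumors: r was 0.70 (permutation p = 0.0284), 0.42 without gene trap tumors 4 and 5, and 0.92 without gene trap tumor 2. For *Cry2* it was 0.69 (permutation p = 0.0326), and 0.70 without gene trap tumors 4 and 5. *Per1*, *Nr1d1*, *Cry1* and *Clock* had r of -0.01, -0.32, -0.30 and -0.38 with *Dbp*. These relations belong to 12 computed with *Dbp* and 11 computed with *Arntl*, and the adjusted p given are those over all genes.

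*Npas2*, a paralog of *Clock* that also pairs with ARNTL, ran the other way. It was at 47.5, 77.8, 51.3, 70.5 and 65.8 in wildtype tumors and at 86.8, 61.9, 93.9, 121 and 22.5 in gene trap tumors. Unlike *Arntl* and *Clock*, it spread widely, with a 5.36-fold range and an SD of log2 values of 0.653 (percentile 92.4 of all tested genes). The tumor with the most *Dbp*, gene trap tumor 5, had the least *Npas2*, and the tumor with the least *Dbp*, gene trap tumor 4, had the most. Its slope on *Dbp* was -0.80 (standard error 0.19, p = 0.00118, adjusted p = 0.657) and r was -0.84 (permutation p = 0.0008; rho -0.81, permutation p = 0.00715), and -0.69 without these 2 tumors. *Arntl* itself had r of -0.50 with *Dbp* (permutation p = 0.142; rho -0.32, permutation p = 0.370) and a slope of -0.09 (standard error 0.08), which did not pass the test.

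**Figure D5:**
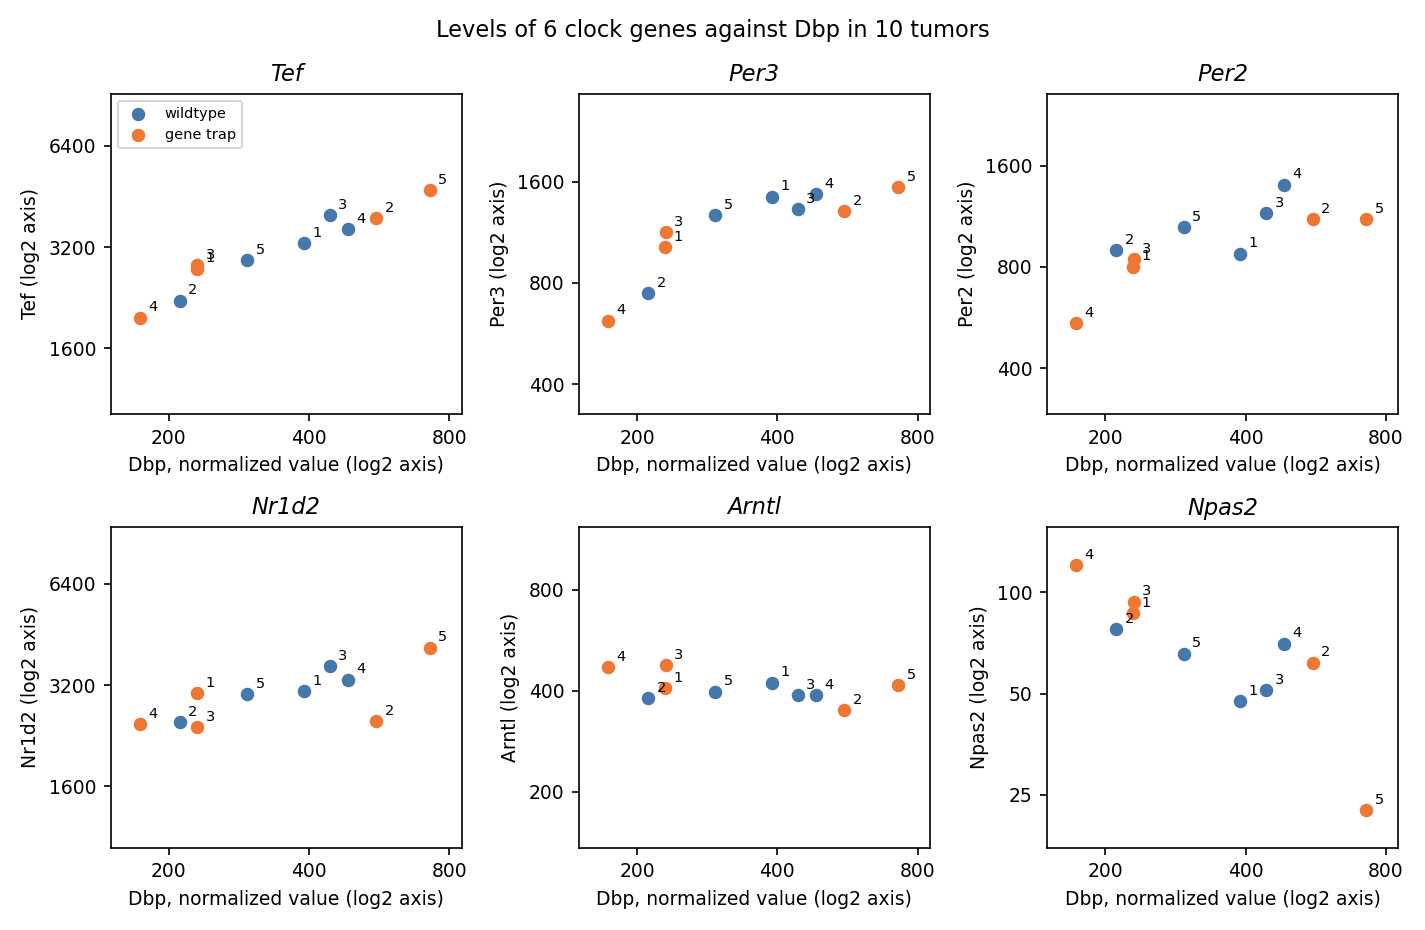
Normalized value of *Tef*, *Per3*, *Per2*, *Nr1d2*, *Arntl* and *Npas2* (y axes, log2 scale) against that of *Dbp* (x axis, log2 scale) in 5 wildtype (blue) and 5 gene trap (orange) tumors, numbered by replicate. *Tef* lies close to a line (r = 0.96), *Arntl* is almost flat, and *Npas2* falls from 121 in gene trap tumor 4 to 22.5 in gene trap tumor 5.

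The same fit with *Arntl* in place of *Dbp* asked whether genes rise or fall with the positive limb. It gave 0 of 21033 genes (0%) at an adjusted p under 0.05 and 3031 (14.4%) at an unadjusted p under 0.05, a number that was 430 without gene trap tumor 2, which had the least *Arntl*. The 1 member among the 3031 was *Per2*, with a slope of -1.64 (standard error 0.68, adjusted p = 0.296), and 6.29% of all genes had a negative and 8.12% a positive slope at that level. The r of *Arntl* with *Per2* was -0.67 (permutation p = 0.0352; rho -0.67, permutation p = 0.0391) and with *Clock* 0.66 (permutation p = 0.0389; rho 0.75, permutation p = 0.0173). Without the 2 tumors farthest from the median of *Arntl*, gene trap tumors 3 and 4, the r with *Per2* was -0.33 and with *Clock* 0.64. These 2 tumors had the most *Arntl*, so leaving them out also narrows its range. Leaving out 1 tumor each gave r with *Per2* of -0.72 to -0.48. After rescaling to equal column totals, which moved the median slope of all genes to 0.49, 4536 genes passed an adjusted p of 0.05 and the r with *Per2* was -0.25 (permutation p = 0.469). Without gene trap tumor 2 the r with *Clock* was 0.52 (exact permutation p = 0.151). The other 7 members had r between -0.50 (*Dbp*) and 0.35 (*Cry1*), with permutation p of 0.141 to 0.778.

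A contrast of the 2 limbs was computed as the mean log2 value of *Per1*, *Per2*, *Per3*, *Nr1d1*, *Nr1d2* and *Dbp* minus log2 *Arntl*. It was 0.92, 0.76, 1.17, 1.41 and 0.87 in wildtype tumors 1 to 5 and 0.84, 1.27, 0.48, 0.14 and 1.04 in gene trap tumors 1 to 5. Wildtype tumor 4 was highest and gene trap tumors 3 and 4 lowest, and the group means were 1.02 ± 0.26 and 0.76 ± 0.45 (SD, n = 5 each). As a description, among 12732 named genes with a mean of at least 50 those most like the contrast were *Pcdhb10* (r = 0.90), *Plekhb1* (0.88), *Atl3* (0.87), *Ctss* (0.87) and *Aif1l* (0.87), and among those most opposed were *Gfer* (-0.91), *Nol9* (-0.86), *Stra6l* (-0.85) and *Lamp3* (-0.84), each over 10 tumors. *Tef* ranked 12 from the top (r = 0.80), *Usp2*, a rhythmic deubiquitinase gene, ranked 69 (r = 0.70), and *Npas2* had r = -0.56. Other clock outputs and repressors had lower r than *Tef* and *Usp2*, at 0.30 for *Ciart*, 0.05 for *Hlf*, 0.003 for *Wee1*, -0.11 for *Bhlhe40* and -0.25 for *Nfil3*. The contrast includes *Dbp*, with which *Tef* and *Npas2* had r of 0.96 and -0.84. Their r with the contrast is therefore not separate from those relations.

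The wider clock machinery was examined as 32 further genes in 6 lists, of which 31 were tested. Between genotypes 12 of the 31 had a positive and 19 a negative log2 fold change, with a median of -0.03, and 0 had an unadjusted p under 0.05 (2.28% of all genes). *Arntl2*, a paralog of *Arntl*, averaged 359 ± 42.6 in the wildtype and 376 ± 38.6 in the gene trap group (SD, n = 5 each), and its log2 fold change was 0.07 (standard error 0.11). *Rora*, which encodes a receptor that opposes the REV-ERBs, was steady, with its highest tumor 1.16-fold above its lowest. Of the 31, 1 rose with *Dbp* (*Tef*) at an adjusted p under 0.05, and 1 more (*Npas2*, with a negative slope) had an unadjusted p under 0.05. With *Arntl*, 0 of the 31 had an unadjusted p under 0.05 (14.4% of all genes). The smallest p were those of *Bhlhe40*, an E-box repressor (slope 1.71), *Nono*, a partner of the PER proteins (0.67), *Nfil3*, a repressor at D-boxes (2.62), *Csnk1e*, a kinase of the PER proteins (0.63), and *Usp2* (-0.99). They were followed by *Tef* (-1.38), *Arntl2* (-0.70), *Bhlhe41* (-0.93), *Csnk1d* (-0.54) and *Wee1* (0.64), and the adjusted p of these 10 genes were 0.389 to 0.570.

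Cell type markers were set beside the *Dbp* fit, in which the median slope of all tested genes was -0.004. Markers of 1 cell type can vary together, so a sign that they share is not a set of separate results. All 7 endothelial markers had a negative slope on *Dbp*, and 3 of them, *Pecam1*, *Cdh5* and *Kdr*, had an unadjusted p under 0.05 (2.45% of all genes had a negative slope at that level). Their summed level was 2688 to 4722 in wildtype and 2452 to 4470 in gene trap tumors, and was 3232 in the tumor with the most *Dbp* and 3143 in the tumor with the least. All 6 adipocyte markers in the table, of 10 listed, also had negative slopes, 0 of them at that level, and their sum was 4150 to 16719 in wildtype and 2827 to 9537 in gene trap tumors, lowest in gene trap tumor 5. Luminal epithelial markers had 6 positive and 2 negative slopes, with *Elf5* negative at an unadjusted p under 0.05, and myoepithelial markers had 3 positive and 4 negative slopes with 0 at that level. Negative slopes were also given by 7 of 8 fibroblast markers, 5 of 6 T and NK cell markers, 4 of 4 skeletal muscle markers and the 1 B cell marker in the table, and positive ones by 6 of 7 macrophage markers, with 0 of these at that level. Their sums in wildtype and gene trap tumors were 40248 to 86162 and 53126 to 122483 (fibroblasts), 110 to 278 and 94.6 to 490 (T and NK cells), 673 to 10218 and 1610 to 4745 (skeletal muscle), 4.45 to 57.9 and 4.24 to 168 (B cells) and 8295 to 13086 and 8534 to 12013 (macrophages). Of the 55 markers in the table, 1, of T and NK cells, had a mean under 10 and was not tested. The part of cell type makeup in the *Dbp* relations was not tested.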

How the data were processed

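Total RNA of mammary tumors was prepared with Trizol and the TruSeq Stranded Total RNA kit. Per the labels' processing notes, Partek, STAR (version 2.7.8a), DESeq2 and build mm39 were used, with the counter and its strand setting not given in the sources used here. The authors deposited a signal per gene, estimated counts already scaled by median ratios (median ratio of each column 0.999 to 1.008, 0 zeros, no whole reads recovered). The table has 16 value columns, of which the names of 10 match a tumor's label and 6 were not used. Symbols were found for 22899 (97.0%) of 23609 IDs. Exon lengths and overlaps are from GENCODE M21, and promoter windows from RefSeq.

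Values were converted to log2(value + 1), so fold changes of low genes are understated, and genes with a mean of at least 10 entered limma (version 3.58.1, under R 4.3.3), with a mean-variance trend, genotype as the only term (plus log2 *Arntl* or log2 *Dbp* in the slope fits) and Benjamini-Hochberg adjustment over all tested genes. Tests were two-sided. Single genes were compared by exact permutation of the group labels, whose smallest p is 0.00794, and correlations by permutation with 100000 resamples (exact enumeration over 9 tumors). The fits were tested on simulated data. Alternatives were other pseudocounts, filters and scalings, weights per tumor, no variance trend, the replicate block and each tumor left out. Count tests and TMM scaling were left out, since the table holds no counts.

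The members and gene lists were chosen with earlier results of these data known. Named genes are the 10 members, *Resf1*, the wider clock genes with the smallest p on *Arntl* or an unadjusted p under 0.05 between genotypes, and the 5 genes most and least like the contrast of the limbs, some of which are not reported here. The *Dbp* fit, *Hlf*, *Npas2*, *Tef* and the markers named beside it, *Rora*, *Thra*, *Sphk2*, *Errfi1* and the further genes set beside the contrast, were chosen after values were seen.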

Additional observations from a re-analysis of the deposited data

Results flagged for a closer look

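*Per3* in wildtype tumor 2, at a normalized value of 744.64, lay far below the other 4 wildtype tumors, which were at 1275 to 1470. Its gap to the nearest of them was 0.731 of the group's whole range, above Dixon's 95% critical value for 5 samples. This was 1 of 28 groups of values examined, of which chance would single out about 1.4. The same tumor had the lowest *Dbp* (211), *Tef* (2220), *Nr1d2* (2480) and *Cry2* (823) and the highest *Npas2* (77.8) of the wildtype tumors.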

How the results depend on the processing

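The genotype comparison gave 0 genes at an adjusted p under 0.05 in all fits run, and the wider clock lists gave 0. The correlation of deviations exceeded 0.1 in 2 of 5 same-numbered pairs of tumors (range -0.16 to 0.15). Pairs with different numbers were not compared, so this cannot settle whether the replicate numbers pair the tumors. With the replicate block the genotype comparison gave 0 genes (426 at an unadjusted p under 0.05), and the *Dbp* fit gave 0 genes, 0 in the wider lists and a *Per1* slope of 0.11.

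The *Dbp* fit, added after the values were seen, gave 1 gene, against 0 genes (0 in the wider lists) after rescaling to equal column totals, after quantile normalization and without a variance trend, and 24 genes (2 in the wider lists) with weights per tumor. Leaving out 1 tumor each gave 0 to 3 genes and 0 to 1 in the wider lists. *Tef* passed in 6 of 10 other settings and in 1 of 10 that left out a tumor, with slopes of 0.50 to 0.57 throughout. The *Arntl* fit gave 0 genes, against 4536 (6 in the wider lists) after rescaling to equal column totals, a setting that moved the median slope of all genes from -0.01 to 0.49, and 0 to 643 when 1 tumor was left out (643 without gene trap tumor 1). Of the 9 correlations of *Arntl* with members, 2 had p under 0.05, against 1 after quantile normalization, 1 after centring within genotype and 0 to 2 when 1 tumor was left out. The cause of these changes was not tested.

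Some signs also turned. The *Nr1d1* log2 fold change was 0.00062 after quantile normalization and 0.0057 with weights. Rescaling to equal totals gave slopes on *Arntl* of 0.23 (*Per3*), 0.26 (*Cry2*), 0.54 (*Nr1d1*) and 0.55 (*Nr1d2*) and r of 0.074, 0.29, 0.33 and 0.34. *Cry2* had a slope of 0.029 after quantile normalization and 0.48 with weights, which gave *Per1* 0.21. Leaving out 1 tumor gave log2 fold changes of -0.35 to 0.022 (*Per3*), -0.024 to 0.092 (*Cry1*), -0.10 to 0.025 (*Cry2*), -0.19 to 0.11 (*Nr1d1*), -0.38 to 0.13 (*Dbp*), -0.17 to 0.14 (*Tef*) and -0.077 to 0.52 (*Npas2*). The same gave slopes on *Arntl* of -1.55 to 0.065 (*Per1*), -1.50 to 0.18 (*Per3*), -0.023 to 0.68 (*Cry1*), -0.67 to 0.82 (*Cry2*), -1.09 to 0.080 (*Nr1d1*) and -1.71 to 0.16 (*Nr1d2*), slopes on *Dbp* of -0.13 to 0.24 (*Per1*) and -0.20 to 0.027 (*Nr1d1*), and r with *Arntl* of -0.56 to 0.070 (*Per3*), -0.042 to 0.50 (*Cry1*), -0.45 to 0.066 (*Cry2*) and -0.48 to 0.043 (*Nr1d2*). Depth is unknown, so no counting interval could be given, and 5 tumors a group limit the genotype comparison.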

Other observations

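Beside *Tef*, the genes with the smallest p in the slope fit on *Dbp* were, in order, *Nrg1* (slope 0.75), *Plat* (-0.61), *Cyp3a57* (2.45), *Mia* (0.67), *Dysf* (-0.35) and *Apoc1* (0.96), all with an adjusted p of 0.657. *Nrg1*, which encodes a ligand of the ERBB receptors, passed the adjusted threshold together with *Atp2a3* and *Tef* once gene trap tumor 2 was left out. The summed level of the 7 myoepithelial markers was 7242 to 9914 in wildtype and 5426 to 7208 in gene trap tumors. The groups did not overlap, by a margin of 7242 in wildtype tumor 3 against 7208 in gene trap tumor 3. Among single tested genes 0.261% were lower in gene trap tumors without overlap, a share that does not cover sums of genes. Of these markers 7 of 7 had a negative log2 fold change (median -0.36). *Krt17* and *Myh11* had an unadjusted p under 0.05 (0.956% of all genes were lower at that level), and 0 had an adjusted p under 0.05. Adipocyte markers were lower in 6 of 6 (median -0.44) and fibroblast markers higher in 8 of 8 (median 0.10), with 0 at an unadjusted p under 0.05. Endothelial and macrophage markers were each lower in 6 of 7, also with 0 at that level. The median log2 fold change of all tested genes was 0.005, and the shared signs of markers of 1 cell type are not separate results. The genes and lists of this paragraph were picked after their values were seen.

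The immediate early gene *Jun* had a positive slope on *Dbp* (0.30, standard error 0.13, adjusted p = 0.807), whereas *Fos* had a slope of -0.19 (standard error 0.23).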
